A study of Mus musculus with 3 samples.

Results

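*Gse1*, *Rere*, *Myt1l*, *Dscam* and *Ptprn2* were the 5 genes, of 479 long genes, that held the most accessible peaks of dopaminergic neurons (DNs) per Mb of gene body. They were chosen by that density, so the density itself is given here as a description, and the text turns on where the peaks lay and what sequence they covered. The peaks came from single-nucleus ATAC-seq, in which a transposase cuts DNA where it is not covered by nucleosomes or other proteins, of the midbrain ventral tegmental area (VTA) of male wild-type C57Bl/6Nl mice, for which the labels give no treatment, in 2 libraries from animals of 7 and 9 weeks. Doublets had been removed by the authors with ArchR, and nuclei had been assigned to DNs by clustering. The list holds 55326 peaks, each 500 bp long, with both libraries pooled and no height, score or count per peak, so that no spread between the libraries could be computed and no test between groups was possible. Intervals are 95% exact intervals, Poisson for densities and binomial for shares, and cover counting error only. They take peaks as independent of each other, so they are too narrow where peaks lie in runs. The mouse embryonic stem cell library of the series, and pyramidal glutamatergic neurons and oligodendrocytes, were not analysed here. Peaks at marker genes, counted in the gene and 2 kb upstream of it, were found at all 10 DN markers examined, with 10 peaks at *Th*, 18 at *Ddc* and 31 at *Lmx1b*. Per the paper, the DN cluster was the one with higher gene scores for *Th*, backed by markers such as *Lmx1b*, *Foxa2*, *Foxa1* and *Slc6a3*. Peaks at these genes were therefore largely fixed by that choice and are no independent check. Of 8 markers of other cell types 6 had no peak, among them *Olig2*, *Sox10*, *Nanog* and *Pou5f1*. The astrocyte marker *Gfap* had 2 peaks and the microglia marker *Cx3cr1*, whose annotated gene spans 168 kb, had 9. The part of nuclei of other types in the peaks below was not tested.

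The 5 genes encode proteins of different kinds. GSE1 is a subunit of a histone deacetylase and demethylase complex with the CoREST proteins, and RERE is a nuclear receptor co-regulator that pairs with its relative atrophin-1. MYT1L is a zinc-finger transcription factor of postmitotic neurons that holds non-neuronal genes silent. DSCAM is a cell adhesion molecule of the immunoglobulin superfamily through which neurites of like cells recognise and avoid each other, and PTPRN2 (phogrin) is a receptor-type phosphatase relative in the membrane of dense-core secretory vesicles. *Myt1l*, *Dscam* and *Ptprn2* are best known in neurons and neuroendocrine cells, whereas *Gse1* and *Rere* are used by many cell types, so the word neuronal does not hold for all 5 in the same way. Accessible peaks mark promoters, which sit at transcription start sites (TSSs), and distal elements such as enhancers, which in long genes often lie in introns. A peak does not say that a gene is transcribed.

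In genome build mm10 (GRCm38), *Gse1* spans chr8:120228502-120581383 on the plus strand, *Rere* spans chr4:150281512-150621966 on the plus strand, and *Myt1l* spans chr12:29527591-29923216 on the plus strand. *Dscam* spans chr16:96587453-97171113 on the minus strand, and *Ptprn2* spans chr12:116485696-117278167 on the plus strand. All 5 had a peak at their first annotated TSS, with the peak centre 85 bp upstream of it in *Gse1*, 145 bp upstream in *Rere*, 22 bp downstream in *Myt1l*, 195 bp upstream in *Dscam* and 29 bp upstream in *Ptprn2*. The central 200 bases of these 5 peaks are shown in the direction of the gene because they are the promoter element that the genes have in common. Capitals mark a match, on either strand, to 1 of 12 motifs of 7 letters that are described further on. The stretches are chr8:120228271-120228470 for *Gse1*, chr4:150281401-150281600 for *Rere*, chr12:29528306-29528505 for *Myt1l*, chr16:97170847-97171046 (minus strand) for *Dscam* and chr12:116485591-116485790 for *Ptprn2*.
Gse1 at the first TSS: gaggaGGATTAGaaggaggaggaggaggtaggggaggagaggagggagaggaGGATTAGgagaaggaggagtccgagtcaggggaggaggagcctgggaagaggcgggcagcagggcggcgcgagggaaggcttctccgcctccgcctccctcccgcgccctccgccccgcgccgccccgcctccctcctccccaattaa
Rere at the first TSS: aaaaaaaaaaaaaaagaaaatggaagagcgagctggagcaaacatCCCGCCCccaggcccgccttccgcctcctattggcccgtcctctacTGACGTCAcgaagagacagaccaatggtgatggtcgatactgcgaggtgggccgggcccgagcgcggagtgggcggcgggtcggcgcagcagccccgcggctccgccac
Myt1l at the first TSS: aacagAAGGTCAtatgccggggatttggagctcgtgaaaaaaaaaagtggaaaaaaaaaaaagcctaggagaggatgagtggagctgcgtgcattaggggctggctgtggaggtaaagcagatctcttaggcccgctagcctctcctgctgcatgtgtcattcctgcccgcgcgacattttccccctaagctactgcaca
Dscam at the first TSS: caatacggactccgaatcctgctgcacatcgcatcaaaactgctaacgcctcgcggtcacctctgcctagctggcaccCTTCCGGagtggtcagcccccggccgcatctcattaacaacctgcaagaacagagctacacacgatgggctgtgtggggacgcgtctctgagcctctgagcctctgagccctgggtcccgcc
Ptprn2 at the first TSS: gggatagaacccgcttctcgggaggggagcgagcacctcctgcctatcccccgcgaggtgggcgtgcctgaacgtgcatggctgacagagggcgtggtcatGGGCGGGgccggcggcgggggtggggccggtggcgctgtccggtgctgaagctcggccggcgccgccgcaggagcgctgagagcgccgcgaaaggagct

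GC content of these stretches was 69% in *Gse1*, 63% in *Rere*, 51% in *Myt1l*, 61% in *Dscam* and 73.5% in *Ptprn2*. The *Ptprn2* stretch held 24 CpG dinucleotides and the *Rere* stretch 20, while *Dscam* had 13, *Gse1* 14 and *Myt1l* 7. The promoter stretch of *Rere* matched the motif of Sp and Klf factors once and that of Creb on both strands of 1 palindromic site, and the *Ptprn2* stretch matched the Sp and Klf motif once. *Dscam* had a match to the Ets motif, *Myt1l* to the Nr4a2 motif, and *Gse1* had 2 matches to the Otx2 and Pitx3 motif. In the central 200 bases of all 21476 peaks of the list within 1 kb of a TSS, the Sp and Klf motif was found in 32.0%, Ets in 9.95%, Creb in 3.73%, Nr4a2 in 2.38% and the Otx2 and Pitx3 motif in 1.16%. A match says only that the letters are there.

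Most of the peaks of the 5 genes lay in introns, far from any promoter. For each gene a peak that held the most kinds of motif among those farther than 1 kb from a TSS is shown, the one nearest the 5′ end where several tied (2 in *Rere* and 5 in *Myt1l*), again as 200 bases in the direction of the gene. The stretch holds fewer kinds than the whole peak in *Gse1*, *Rere*, *Myt1l* and *Ptprn2*, where 2 are shown and the others lie outside it. They lie at chr8:120335701-120335900 in intron 1 of *Gse1*, chr4:150465832-150466031 in intron 4 of *Rere*, chr12:29606385-29606584 in intron 2 of *Myt1l*, chr16:97165574-97165773 (minus strand) in intron 1 of *Dscam* and chr12:116938360-116938559 in intron 11 of *Ptprn2*.
Gse1 intron 1: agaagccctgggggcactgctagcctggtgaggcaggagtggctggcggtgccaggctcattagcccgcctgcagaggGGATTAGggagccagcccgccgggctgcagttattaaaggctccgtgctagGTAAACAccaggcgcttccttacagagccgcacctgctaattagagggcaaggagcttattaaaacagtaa
Rere intron 4: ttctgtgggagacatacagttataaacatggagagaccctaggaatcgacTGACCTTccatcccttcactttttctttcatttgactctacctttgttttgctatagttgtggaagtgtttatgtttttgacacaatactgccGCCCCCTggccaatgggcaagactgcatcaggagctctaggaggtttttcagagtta
Myt1l intron 2: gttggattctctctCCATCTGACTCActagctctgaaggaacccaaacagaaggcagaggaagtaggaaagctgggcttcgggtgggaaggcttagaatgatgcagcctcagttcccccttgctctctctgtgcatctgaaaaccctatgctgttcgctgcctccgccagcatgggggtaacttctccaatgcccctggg
Dscam intron 1: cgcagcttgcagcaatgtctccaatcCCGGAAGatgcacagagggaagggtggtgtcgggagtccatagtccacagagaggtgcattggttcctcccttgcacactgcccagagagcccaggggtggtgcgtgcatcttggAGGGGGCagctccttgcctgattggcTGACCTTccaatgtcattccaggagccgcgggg
Ptprn2 intron 11: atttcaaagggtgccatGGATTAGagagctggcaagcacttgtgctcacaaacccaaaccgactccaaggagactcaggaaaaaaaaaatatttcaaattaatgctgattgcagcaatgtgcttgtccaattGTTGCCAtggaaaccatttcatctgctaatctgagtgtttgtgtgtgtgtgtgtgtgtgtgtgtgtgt

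The *Gse1* intron stretch matched the Otx2 and Pitx3 motif and the forkhead motif, which are bound by factor families that hold several regulators of DN identity. The *Dscam* stretch matched the Ets, CTCF and Nr4a2 motifs, and the *Rere* stretch matched Nr4a2 and CTCF. The *Myt1l* stretch held a Neurod E-box that ran directly into an AP-1 site, and the *Ptprn2* stretch matched the Otx2 and Pitx3 motif and the Rfx motif. These peaks were picked for their matches, so the matches carry no weight of their own. GC content was lower than in the promoter stretch of the same gene in *Gse1* at 58.5%, *Rere* at 43.5%, *Dscam* at 60.5% and *Ptprn2* at 42%, and higher in *Myt1l* at 54.5%.

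*Gse1* held 68 peaks in 352.9 kb, or 192.7 peaks per Mb (149.6 to 244.3). *Rere* held 47 peaks in 340.5 kb, or 138.1 per Mb (101.4 to 183.6), and *Myt1l* held the same number in 395.6 kb, or 118.8 per Mb (87.3 to 158.0). *Dscam* held 67 peaks in 583.7 kb, or 114.8 per Mb (89.0 to 145.8), and *Ptprn2* held 82 in 792.5 kb, or 103.5 per Mb (82.3 to 128.4). In the order of density each gene's interval overlapped that of the next, so no 2 neighbours in the order could be told apart by counting error. The gene just outside the 5 was *Rbfox3*, with 42 peaks and 99.6 per Mb (71.8 to 134.6), which overlapped *Ptprn2* in the same way. *Agap1* followed with 90.8, *Ksr2* with 90.4, *Nedd4l* with 84.0 and *Tmem178b* with 83.4 peaks per Mb, and these 5 were the long genes most like the members in density. The median density of the other 474 long genes was 12.9 peaks per Mb, with quartiles of 7.20 and 24.0. Peaks covered between 5.17% (*Ptprn2*) and 9.63% (*Gse1*) of the bases of the 5 gene bodies, beside a median of 0.646% in the other long genes.

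**Figure D1:**
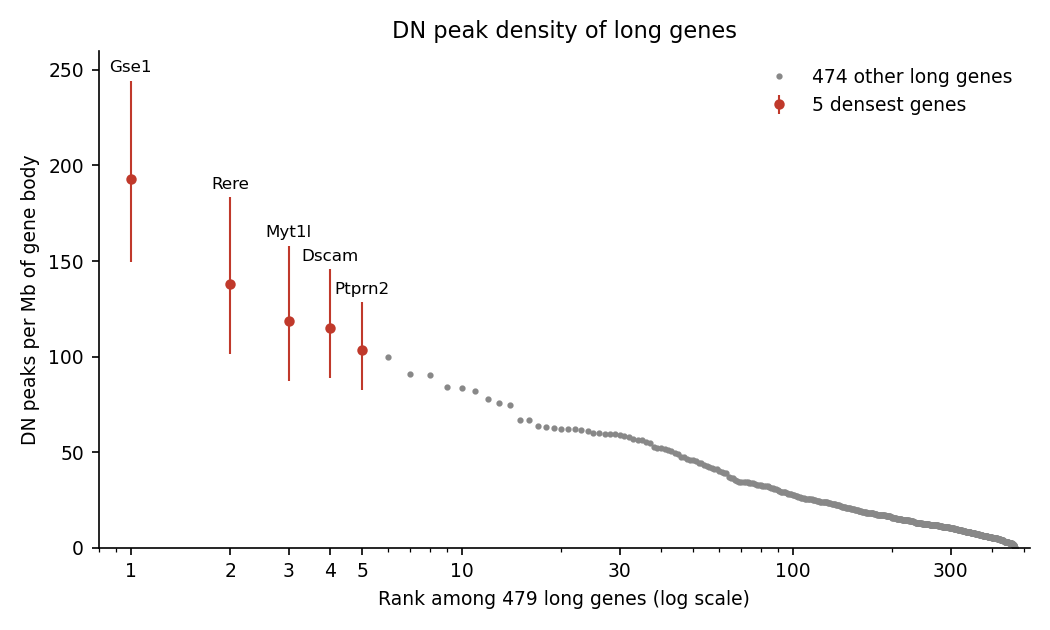
Peaks per Mb of gene body (y axis) of 479 long genes in the order of their density (x axis, log scale). Red points are the 5 densest genes with their 95% exact Poisson intervals, grey points the other 474, and the step from Ptprn2 (103.5) to the next gene (99.6) is smaller than the intervals.

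The peaks were strung along the whole of each gene, in an arrangement that was not the same in all 5. When each gene was cut into 3 parts of equal length, *Gse1* held 33 peaks in the 5′ part, 8 in the middle and 27 in the 3′ part. *Myt1l* had the same hollow middle with 21, 7 and 19 peaks. *Rere* rose from 8 to 16 to 23 peaks towards its 3′ end, *Dscam* was nearly level with 19, 26 and 22, and *Ptprn2* had 28, 17 and 37. Over the 5 genes 41.2% of the peaks (128 of 311, 35.6% to 46.9%) lay in the 3′ part and 35.0% (29.7% to 40.6%) in the 5′ part. In the other long genes, counted gene by gene, the 3′ part held 34.6% (33.2% to 35.9%) and the 5′ part 38.0% of 4855 peaks. None of the 5 densest genes was thus filled from its promoter end alone.

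**Figure D2:**
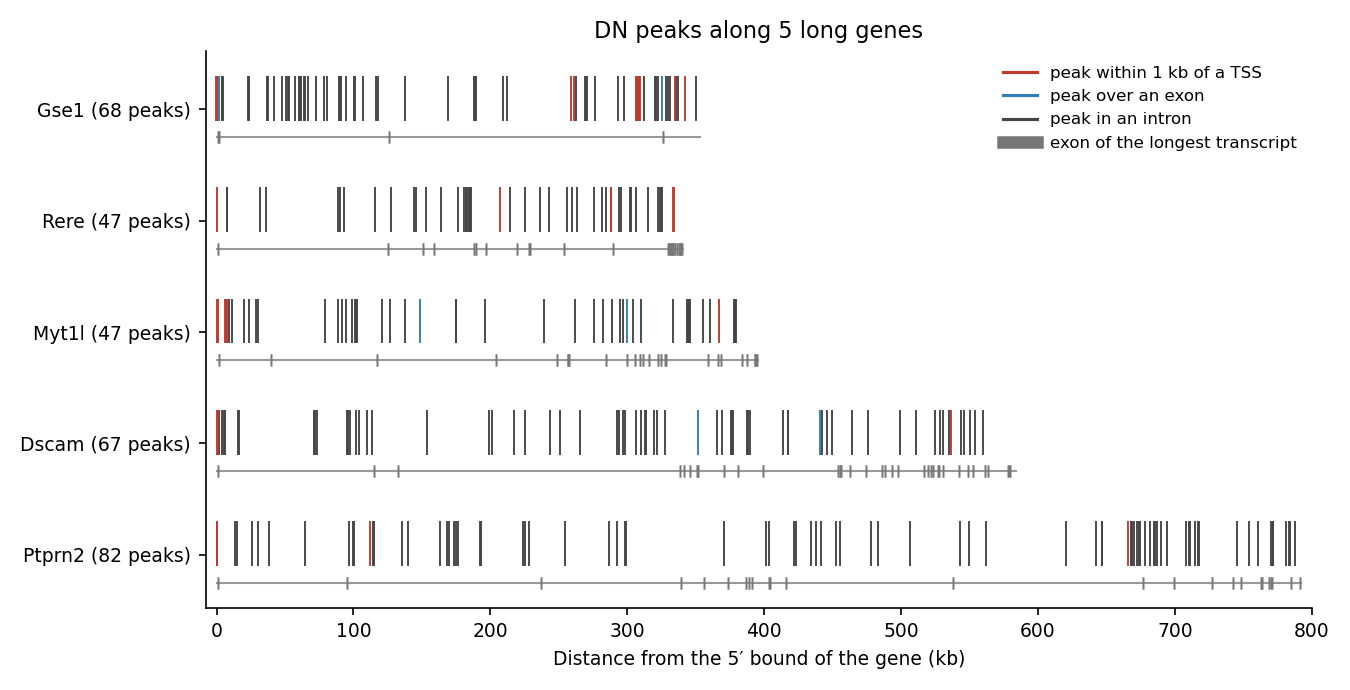
Peaks (vertical lines) along the 5 genes, with the distance from the 5′ bound of the gene on the x axis in kb. Red lines are peaks within 1 kb of a TSS, blue lines peaks over an exon and black lines peaks in an intron, and grey blocks are exons of the longest protein-coding transcript, drawn at least 1.5 kb wide. The longest stretch without a peak runs from 299 to 371 kb in Ptprn2.

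Neighbouring peaks lay close together. The median distance between the centres of neighbouring peaks was 2.35 kb in *Gse1* (quartiles 1.01 and 6.13 kb), 4.66 kb in *Rere* (1.24 and 10.1 kb), 4.93 kb in *Myt1l* (1.34 and 9.75 kb), 3.48 kb in *Dscam* (1.59 and 11.2 kb) and 3.76 kb in *Ptprn2* (1.75 and 12.4 kb). The median over the other long genes with at least a pair of peaks was 37.5 kb. The longest stretch without a peak centre was 46.7 kb in *Gse1*, 52.6 kb in *Rere*, 48.7 kb in *Myt1l*, 54.6 kb in *Dscam* and 71.8 kb in *Ptprn2*. The stretch in *Ptprn2* took up 9.06% of the gene, the lowest share of all 479, and the stretch in *Rere* took up 15.4%, the highest of the 5. In the other long genes the median was 206 kb, or 38.7% of the gene. The 5 genes next in density were like the members in this, with empty stretches of 10.0% of the gene in *Nedd4l* to 15.2% in *Ksr2*. These distances follow in part from the density by which the genes were chosen.

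In *Gse1* the empty stretch ran from 212 to 259 kb after the 5′ bound of the gene and ended at the peak beside a second promoter. In *Myt1l* it ran from 30.3 to 79.0 kb and in *Dscam* from 16.3 to 70.8 kb, so in both genes it followed the group of peaks at the 5′ end. In *Rere* it ran from 36.3 to 88.9 kb, inside intron 1.

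When peaks with at most 1 kb between them were joined, the 68 peaks of *Gse1* became 41 regions, the 47 of *Rere* 33, the 47 of *Myt1l* 35, the 67 of *Dscam* 52 and the 82 of *Ptprn2* 62. Joined regions with more than 1 peak held 61.8% of the peaks of *Gse1*, and 38.3% to 46.8% of those of the other 4 genes. The regions with the most peaks, 5 each, were chr8:120534917-120537945 at a downstream promoter of *Gse1*, chr4:150463619-150467874 in intron 4 of *Rere* and chr4:150603907-150607249 in intron 12 of *Rere*. Regions of 4 peaks, counting those just upstream of the gene, covered the first TSS of *Gse1*, *Myt1l* and *Dscam*, a cluster of TSSs of *Myt1l* at chr12:29533143-29536646 and intron 18 of *Myt1l* at chr12:29870751-29873729. *Ptprn2* had no region with more than 3 peaks.

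In windows of 50 kb counted from the 5′ bound, the 7 whole windows of *Gse1* held 11, 17, 6, 4, 2, 9 and 18 peaks. The 6 whole windows of *Rere* held 4, 3, 4, 9, 5 and 10, and the 7 of *Myt1l* held 11, 5, 7, 3, 1, 7 and 7. *Dscam* held between 2 and 9 peaks in each of its 11 whole windows. *Ptprn2* held between 0 and 14 in its 15, with the single empty window at 300 to 350 kb. In the other long genes a median of 57.1% of the whole windows had no peak, and 25 of these 474 genes, among them the 5 next in density, had none without a peak. The variance of the counts divided by their mean was 4.00 in *Gse1*, 2.55 in *Ptprn2*, 1.79 in *Myt1l*, 1.33 in *Rere* and 0.89 in *Dscam*, where a value of 1 is that of counts placed independently of each other. *Gse1* was thus the most uneven of the 5 and *Dscam* the most even. Of 51145 windows of this length across the genome, which had a mean of 1.08 peaks and of which 57.6% had none, 0.147% held as many peaks as the fullest window of *Gse1*, 0.391% as many as that of *Ptprn2* at 650 to 700 kb, 0.903% as many as that of *Myt1l*, 1.18% as many as that of *Rere* and 1.58% as many as that of *Dscam*. The genes were chosen for their density and the fullest window of each was taken, so these low shares were largely fixed by that choice.

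**Figure D3:**
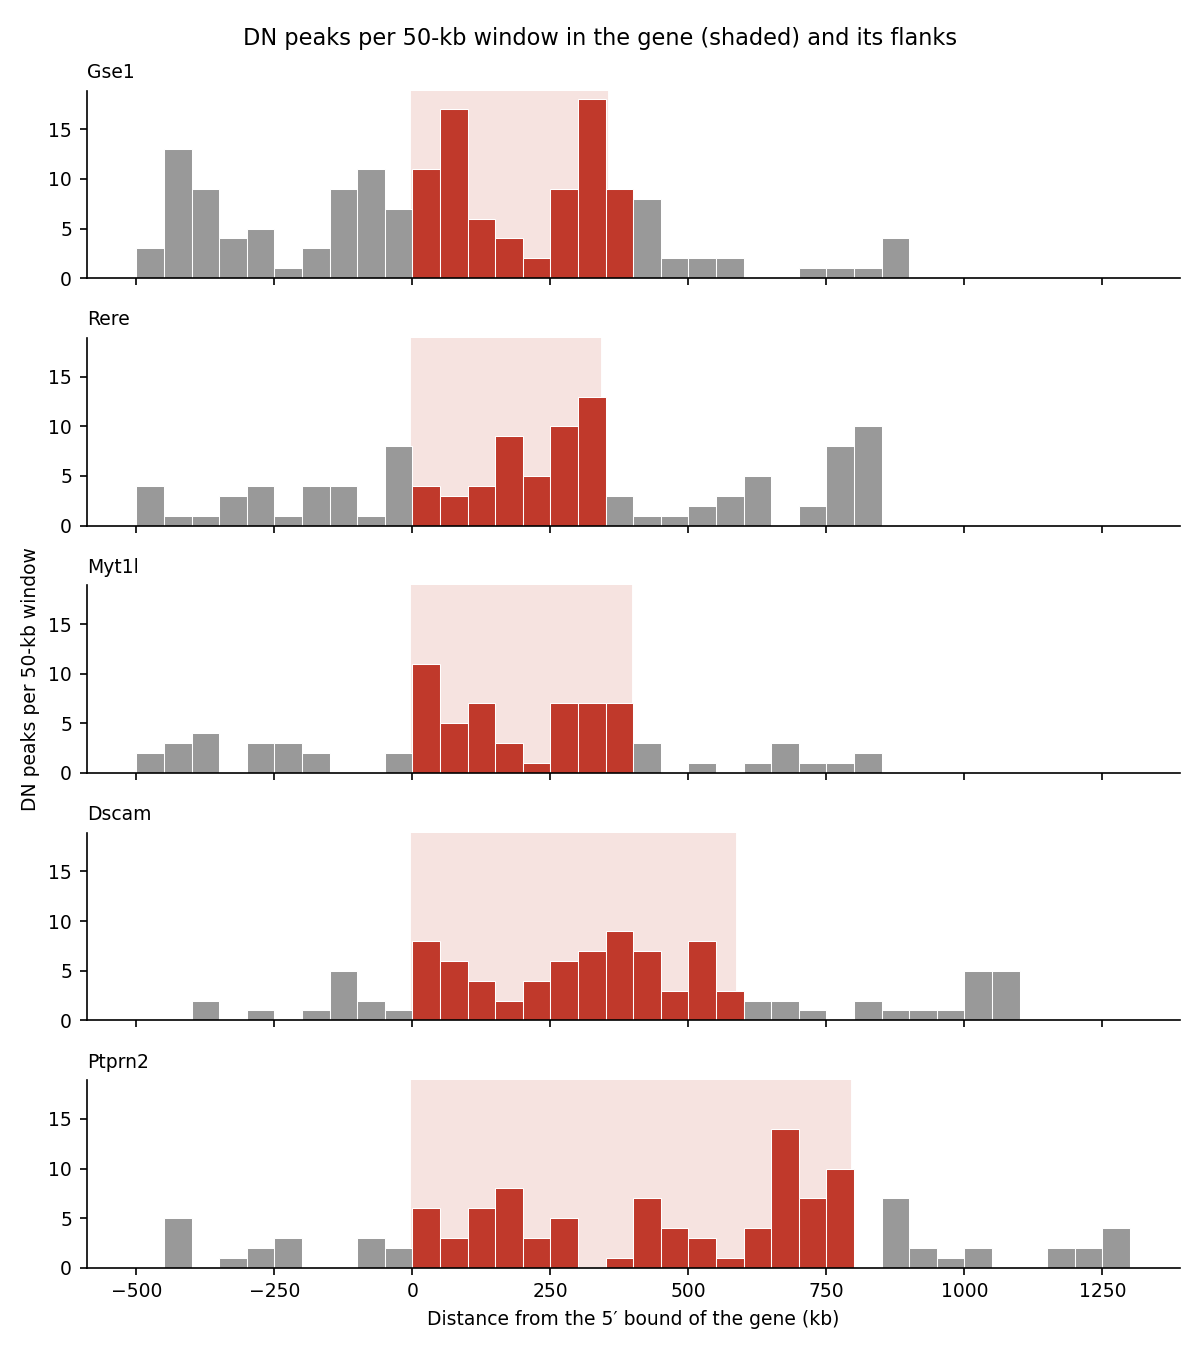
Peaks per 50-kb window (y axis) along each gene and about 500 kb on either side, by distance from the 5′ bound in kb (x axis). Red bars are windows that overlap the gene, shaded, and grey bars lie outside it. The last red window of a gene also counts peaks beyond its end. Gse1 reaches 18 peaks in a window and Dscam 9, and grey bars beside Gse1 are taller than those beside Dscam.

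Within 500 kb on either side, peaks numbered 91 per Mb at *Gse1*, 64 at *Rere*, 37 at *Ptprn2*, 32 at *Myt1l* and 27 at *Dscam*. The gene body was denser than its flanks by 2.12 times in *Gse1*, 2.16 times in *Rere*, 2.80 times in *Ptprn2*, 3.71 times in *Myt1l* and 4.25 times in *Dscam*. The same ratio had a median of 0.965 in 466 other long genes with a peak in their flanks (quartiles 0.511 and 1.80), and it was above 1 in 227 of them. By this ratio *Dscam* ranked 25, *Myt1l* 31, *Ptprn2* 58, *Rere* 92 and *Gse1* 100 of 471 long genes. The 2 densest genes thus ranked lowest of the 5. The numerator of the ratio is the density by which the 5 genes were chosen, so a high ratio in them was largely fixed by that choice. The order of the 5 by this ratio also changed with the flank: with 200 kb on either side *Myt1l* had the highest ratio (5.28) and *Gse1* the lowest (1.51), and with 1000 kb *Ptprn2* had the highest (5.17) and *Rere* the lowest (1.71). The 91 peaks beside *Gse1* were 65 upstream and 26 downstream, and 29 of them were within 1 kb of a TSS of a gene of any type. The flanks of *Gse1* overlapped 16 protein-coding genes. *Dscam* had 13 protein-coding genes in its flanks and 12 upstream and 15 downstream peaks, and *Myt1l* had 3 such genes and 19 and 13 peaks. With peaks at TSSs left out of the flanks, they held 62 peaks per Mb at *Gse1*, 42 at *Rere*, 26 at *Myt1l*, 26 at *Ptprn2* and 15 at *Dscam*.

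By annotation, 88.1% of the 311 peaks (274, 84.0% to 91.5%) lay in introns, 9.65% (30, 6.60% to 13.5%) had their centre within 1 kb of an annotated TSS and 2.25% (7) lay over other exons. The share in introns was 74.1% in the peaks of the other long genes. It was 34.4% in all peaks, of which 21.0% lay outside genes. The share at a TSS was 21.6% in the 4780 peaks of the other long genes and 38.8% in all peaks. Among the members it ran from 16.2% in *Gse1* (11 of 68, 8.36% to 27.1%) through 12.8% in *Rere* and in *Myt1l* (6 of 47 each, 4.83% to 25.7%) to 4.88% in *Ptprn2* (4 of 82, 1.34% to 12.0%) and 4.48% in *Dscam* (3 of 67, 0.933% to 12.5%). A gene with many peaks and few promoters has a low share by construction. Without the peaks at TSSs *Gse1* still held 161.5 peaks per Mb, *Rere* 120.4, *Dscam* 109.7, *Myt1l* 103.6 and *Ptprn2* 98.4, and these were again the 5 highest values of the 479 genes.

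Of the 30 peaks at a TSS, 27 were at a TSS of the member itself. *Gse1* has 7 annotated TSSs, each with a peak within 1 kb. Beside the first, with 2 peaks, they lay at 260 kb (2 peaks) and at 307 to 309 kb, where a run of 5 peaks spanned chr8:120534917-120537945, and at 334 and 343 kb with 1 peak each. *Rere* has 8 annotated TSSs, of which 6 had a peak within 1 kb. Those with a peak directly over them lay at the start of the gene, at 207 kb in intron 7, at 288 kb in intron 11 and at 334 kb in exon 18, whereas the TSSs at 125 and 336 kb had none within 1 kb. *Myt1l* has 10, and those within the first 8 kb were all covered by peaks, at 0.8, 5.8, 7.0 and 7.6 kb. The TSS at 368 kb of *Myt1l* had a peak 251 bp away, and those at 39.1, 313 and 324 kb had none within 1 kb. The second TSS of *Dscam*, at 548 kb, had no peak within 1 kb, and the 4 annotated TSSs of *Ptprn2* lie 0.024 to 0.137 kb after its 5′ bound, under the same peaks. *Gse1*, *Rere* and *Myt1l* thus had peaks at promoters inside the gene, whereas *Dscam* and *Ptprn2* had 2 peaks each at a TSS of their own, all at the start of the gene.

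Other annotated genes overlap the members, and the peaks cannot be assigned to one of the pair. The readthrough gene *Gm20388* spans all of *Gse1*. In *Dscam*, the antisense RNA *AC154538.2* overlapped 5 peaks and had 1 peak beside its start, and the transcript *AC154538.1* overlapped 6. In *Ptprn2*, the antisense RNA *Gm5441* overlapped 9 peaks and *Gm10421* overlapped 1 at its start, and in *Myt1l* the transcript *Gm20208* overlapped 4. The microRNA gene *Mir153*, whose products are abundant in neurons and neuroendocrine cells, lies in *Ptprn2* at chr12:117250817-117250885, 765 kb into the gene. No peak covered it, and the nearest peak centre was 4.76 kb away. Its mature products are shown, from RefSeq, with the seed (bases 2 to 8) in capitals.
mmu-miR-153-3p: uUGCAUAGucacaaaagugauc
mmu-miR-153-5p: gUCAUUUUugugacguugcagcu

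Within the longest protein-coding transcript of each gene, long introns held most peaks but not in proportion to their length. Peaks within 1 kb of a TSS are counted here in the intron that holds them, unlike in the shares by annotation above. This holds for promoter peaks in intron 2 of *Gse1* and in intron 1 of *Myt1l*. The *Gse1* transcript used has only 3 exons, and 10 of the 68 peaks of the gene lay outside it. Intron 1 of *Gse1* (123 kb) held 30 peaks, or 243 per Mb, and intron 2 (199 kb) held 25, or 125 per Mb. In *Rere*, intron 1 (124 kb) made up 36.5% of the transcript and held 17.0% of the peaks of the gene, whereas intron 12 (40.6 kb) made up 11.9% and held 23.4%, 11 peaks or 271 per Mb. Introns 4 and 11 of *Rere* held 8 peaks each in 29.2 and 35.3 kb. The long first intron of *Rere*, with 64.5 peaks per Mb, thus held as many peaks as each of these shorter introns but was the less dense.

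*Myt1l* held 9 peaks in intron 1 (37.9 kb, 237 per Mb), 8 in intron 2 (77.5 kb), 7 in intron 3 (86.5 kb) and 1 in intron 4 (44.4 kb). Further peaks lay in intron 18 (30.8 kb), which held 6. In *Dscam*, intron 1 (113 kb) held 16 peaks and intron 3 (205 kb) held 19, which were 28.4% of the peaks in 35.4% of the transcript, and intron 11 (54.2 kb) held 7. *Ptprn2* held 19 peaks in intron 2 (142 kb), 14 in intron 12 (139 kb) and 10 in intron 11 (122 kb), and 5 in intron 3 (102 kb). Some shorter introns of *Ptprn2* were denser, with 7 peaks in the 22.8 kb of intron 13 (307 per Mb) and 5 in the 14.0 kb of intron 21 (358 per Mb). Others were not, as introns 4 (16.8 kb) and 15 (15.1 kb) held no peak and intron 5 (17.4 kb) held 1 (57.4 per Mb). Counts this small leave wide intervals, and the introns were compared by description only.

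The gene bodies were richer in GC than most long genes. GC content was 54.5% in *Gse1*, the highest of the 479, 45.0% in *Ptprn2*, 43.9% in *Rere* and in *Myt1l* and 43.1% in *Dscam*, beside a median of 40.9% in the other long genes. Only *Gse1* lay outside the range of the others, whose highest value was 51.9%. Across all 479 genes peak density and GC content had a Spearman's rho of 0.63 and a Pearson's r of 0.62, which are given as a description without a test, since all values come from 1 list. Density had a rho of -0.56 with the share of repeat-masked bases and of -0.17 with gene length. *Myt1l* had 14.7% of its bases masked as repeats, *Gse1* 19.0%, *Dscam* 22.4%, *Ptprn2* 24.9% and *Rere* 29.2%, beside a median of 26.2%. The part of GC content or of repeats in the density was not tested.

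**Figure D4:**
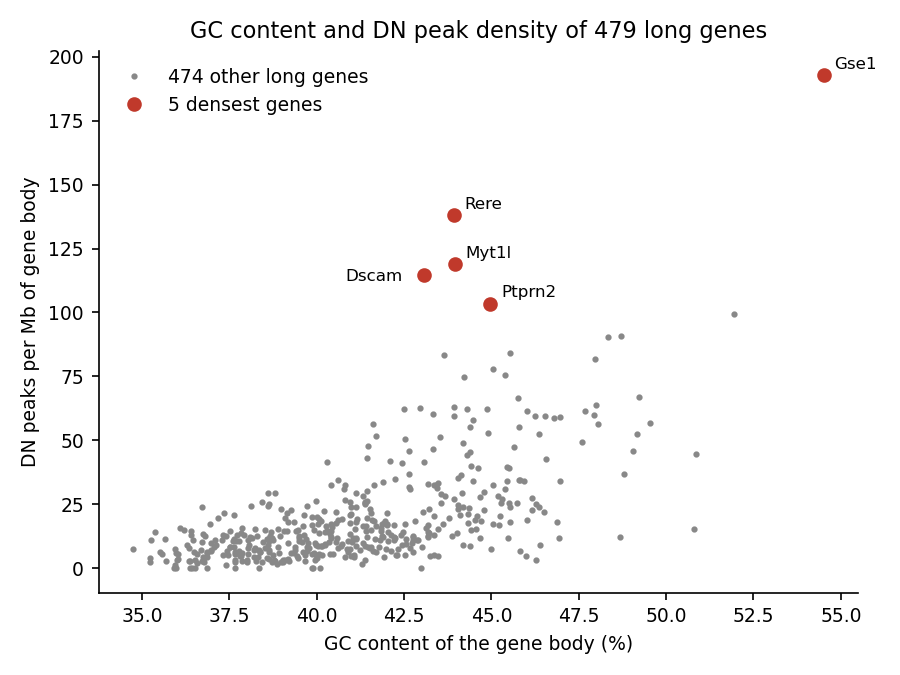
GC content of the gene body in percent (x axis) and peaks per Mb (y axis) of 479 long genes. Gse1 (54.5% GC) lies to the right of all other genes, and the other 4 red points lie between 43.1% and 45.0%, above every grey point.

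In each gene the peaks had a higher mean GC content than the sequence beside them. Mean GC content of the peaks was 59.3% in *Gse1*, 48.1% in *Rere*, 47.7% in *Myt1l*, 46.3% in *Dscam* and 48.7% in *Ptprn2*. In windows of the same length 2 kb away that held no peak it was 54.8%, 44.9%, 43.9%, 43.1% and 45.2% in the same order. The peaks of the 5 genes had a mean of 11.7% of bases masked as repeats, and the windows beside them 20.8%. The CpG ratio, the number of CpG dinucleotides over that expected from the base content, was 0.59 in the 30 peaks at a TSS and 0.21 in the other 281. The latter were thus poor in CpG, with 0.27 in all peaks away from a TSS.

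The 12 motifs of 7 letters were searched on both strands of each whole peak. They were TGANTCA for AP-1 (dimers of Fos and Jun proteins, among them factors induced by neuronal activity), the E-box CAGATGG for Neurod factors of neuronal differentiation, TGTTTAC for forkhead factors such as Foxa1 and Foxa2, and CTAATCC for the homeobox factors Otx2 and Pitx3. The others were AAGGTCA for the orphan nuclear receptor Nr4a2, AAAGTTT for the Myt1 family, AGGGGGC for the insulator protein CTCF, GGGCGGG for Sp and Klf factors, GCATGCG for Nrf1, GTTGCCA for Rfx factors, CCGGAAG for Ets factors and the word TGACGTC for Creb. None of these words is contained in another, though their matches may overlap. Of the 311 peaks, 191 held at least 1 of them and 120 held none.

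Peaks at promoters hold other motifs than distal ones, so the members were compared with others among peaks farther than 1 kb from a TSS. Of 281 such peaks, AP-1 was found in 13.9% (10.1% to 18.5%), Nr4a2 in 13.5% (9.75% to 18.1%), Neurod in 13.2% (9.44% to 17.7%) and Rfx in 11.0% (7.62% to 15.3%). In the 3746 such peaks of the other long genes these shares were 16.1%, 13.8%, 13.1% and 9.53%, and in all 33850 they were 15.0%, 12.3%, 13.8% and 8.90%. All of these lay within the intervals of the 5 genes. The forkhead motif was found in 6.05% (17 peaks, 3.56% to 9.51%) of the members' peaks, beside 11.9% (10.8% to 12.9%) in the other long genes and 9.07% in all. It was found in 7 of 41 such peaks of *Rere*, in 3 of 57 in *Gse1*, 2 of 41 in *Myt1l*, 3 of 64 in *Dscam* and 2 of 78 in *Ptprn2*. The low share thus did not hold in *Rere*. In the central 200 bp alone the forkhead motif was found in 4.27% (12 of 281, 2.23% to 7.34%), beside 6.65% in the other long genes. The share was thus lower there too, but the interval takes in that of the other long genes and does not set them apart.

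The Sp and Klf motif was found in 7.12% (4.40% to 10.8%), beside 3.71% (3.13% to 4.37%) in the other long genes and 7.56% in all peaks. Of its 20 peaks 14 were in *Gse1* (of 57, 24.6%) and 6 in *Ptprn2* (of 78, 7.69%), and none of 41 in *Rere*, 41 in *Myt1l* or 64 in *Dscam* had it, which allows shares of up to 8.60%, 8.60% and 5.60% by the same intervals. The gene with the highest GC content thus held most of the matches to the motif made of G and C alone. CTCF was found in 9.25% (6.13% to 13.3%), beside 7.26% in the other long genes and 11.1% in all, and the Myt1 family motif in 4.98% (2.75% to 8.22%), beside 8.33% in the other long genes and 6.30% in all. In windows 2 kb away from all 311 peaks the Myt1 family motif was found in 9.59%, beside 5.14% of the peaks themselves, and the Rfx motif in 5.68%, beside 10.9% (7.69% to 14.9%) of the peaks. The Sp and Klf motif was found in 3.33% of the windows and 10.6% (7.42% to 14.6%) of the peaks, and CTCF in 5.48% and 9.97% (6.87% to 13.8%). For the other 8 motifs the share in the windows lay within the interval of the peaks. The whole list of peaks had these 4 contrasts in the same direction, with the Myt1 family motif in 10.4% of the windows and 5.59% of the peaks, Rfx in 5.12% and 7.90%, Sp and Klf in 3.78% and 21.9%, and CTCF in 6.09% and 14.8%.

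**Figure D5:**
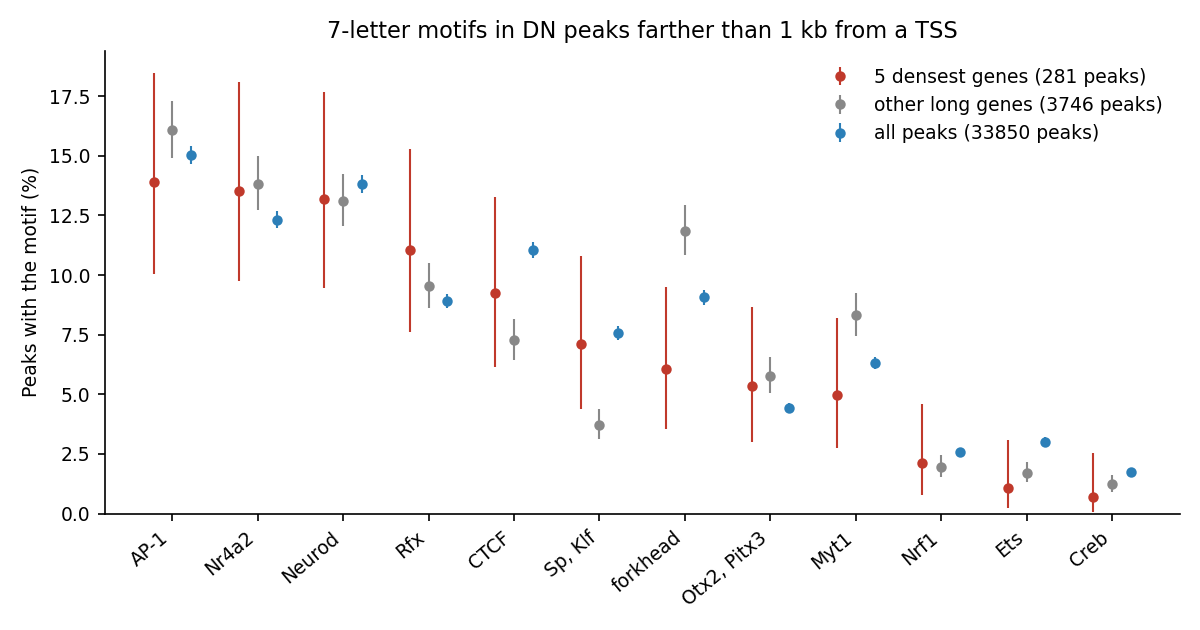
Share of peaks farther than 1 kb from a TSS that held each of 12 motifs (y axis, percent), for the 5 densest genes (red, 281 peaks), the other long genes (grey, 3746) and all peaks (blue, 33850), with 95% exact binomial intervals. The red interval lies below the grey one for forkhead and above it for Sp and Klf factors, and overlaps it for the other 10.

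Paralogues and partners of the 5 proteins were examined for peaks in the gene and 2 kb upstream of it. At least 1 peak was found in 27 of 28 (96.4%), with a median of 4, beside 65.1% of 21728 protein-coding genes, with a median of 1. The 28 were a chosen list, not matched to the protein-coding genes in length or expression, so no conclusion is drawn from this gap. All 7 complex partners of GSE1 had peaks, with 9 at *Phf21a*, 5 at the demethylase gene *Kdm1a* and 5 at the CoREST gene *Rcor1*. Of the partners of RERE, the atrophin-1 gene *Atn1* had 8 peaks, the histone methyltransferase gene *Ehmt2* had 3 and the nuclear receptor gene *Nr2e1* was the single gene with none. The paralogues of *Myt1l* had few, with 2 at *Myt1* and 2 at *St18*, and the co-repressor gene *Sin3b* had 5.

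The paralogue of *Dscam*, *Dscaml1*, is itself a long gene and had 15 peaks in 327 kb, or 45.9 per Mb of gene body beside the 114.8 of *Dscam*. The related adhesion molecules *Sdk1* and *Sdk2* had 19 and 16 peaks, and *Ntn1*, which encodes the guidance cue netrin-1 that DSCAM binds, had 17. The paralogue of *Ptprn2*, *Ptprn*, is short and had 8 peaks for 17.5 kb of gene. All 10 dense-core vesicle genes examined had peaks, from 1 at *Chgb* and 1 at *Scg2*, which encode granins, to 14 at *Cadps2*, which primes vesicles for release. *St18*, *Sdk1*, *Cadps* and *Cadps2* are long genes too, and had 5.35, 18.5, 17.8 and 22.5 peaks per Mb of gene body. The shorter vesicle genes ranged from 25.9 per Mb of gene body at *Pcsk2*, 39.8 at *Cpe* and 44.4 at *Pcsk1* to 198.8 at *Chga*, with 2 peaks, and *Ptprn* had 400.5. The shorter genes of the other lists ranged from 0 at *Nr2e1* and 16.1 at *Pak1* to 143.2 at *Sin3b*, 192.5 at *Ehmt2*, 429.2 at *Atn1* and 451.2 at *Hmg20b*.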

How the data were processed

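Single-nucleus ATAC-seq libraries of the midbrain VTA were made from male mice, and nuclei were assigned to DNs by the authors. Per the labels reads were mapped to mm10, and the tools named there are Bowtie, Cell Ranger and ArchR. The peak positions deposited by the authors pool both libraries. They are plain coordinates in bp without a score, count or other measure of signal, so no depth per peak is known. Whether the filter on the share of nuclei with a peak, which the methods describe, had been applied to the list is not given in the sources used here. Starts were read as counted from 0 and are printed counted from 1.

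Symbols and bounds of 479 long genes came from the study's gene list. The other values of that list, which concern chromatin contacts and scaled RNA and ATAC levels of several cell types, are not used here. A peak was counted for a gene at an overlap of at least 1 bp. TSSs, exons and introns came from all transcripts of GENCODE M21, and sequence from GRCm38. Motifs and composition were computed with Python 3.11.15, numpy 2.4.6 and pandas 2.3.3, and intervals with scipy 1.17.1. The scripts were tested on simulated peaks. The members, motifs and gene lists were chosen with earlier results of these data known. Named genes were the members, the 5 next in density, listed partners, listed markers of cell types and genes overlapping a member.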

Additional observations from a re-analysis of the deposited data

How the results depend on the processing

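*Gse1*, *Rere*, *Myt1l*, *Dscam* and *Ptprn2* were the 5 densest long genes under each of the 6 other ways of counting that were tried. These counted a peak by its centre, counted only peaks wholly in the gene, used the bounds of the annotation (474 of the 479 genes matched), joined peaks over gaps of at most 1 kb, left out peaks within 1 kb of a TSS, or left out the first 50 kb of the gene. *Myt1l* and *Dscam* changed places under the last 3. Joining lowered the density to 116.2 per Mb in *Gse1*, 96.9 in *Rere* and 78.2 in *Ptprn2*. A TSS distance of 500 bp lowered the share of peaks at a TSS to 6.43%. Flanks of 200 kb held 127.5 peaks per Mb at *Gse1*, and flanks of 1000 kb held 70.5 at *Gse1* and 20 at *Ptprn2*. Searching the central 200 bp lowered 8 of 12 motif shares by more than their intervals, as fewer bases were searched, and leaving out peaks at a TSS lowered that of the Sp and Klf motif to 7.12%. The basic transcript set, which holds no transcript from the first part of *Gse1*, was added after seeing the data and left the class shares within their intervals. A stricter peak threshold and the leaving out of a library were not run, since the list has no score and pools both libraries. No paired analysis was possible because the result comes from 1 pooled list and no test. No peak means that none was listed at this depth.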
